A study of Mus musculus with 8 samples.

Results

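The genes described here encode the machinery that fuses, primes and recycles synaptic vesicles. They were chosen by name: 39 symbols were matched to the gene IDs of the deposited count table, which lists 56691 genes, and all 39 were found and passed the filter on low counts. They were grouped by their role into SNAREs and fusion regulators (7 genes), SNARE disassembly and folding (4), active zone and priming (14), vesicle membrane and vesicle-associated proteins (9), and endocytosis and uncoating (5). The study measured ribosome-associated messenger RNA of the ventral tegmental area, the midbrain region of the mouse that holds many of the brain's dopamine neurons. Control mice had the genotype Ogt flox-/Y (4 libraries, replicates 3, 4, 5 and 6), and the other mice had the genotype Ogt flox+/Y (4 libraries, replicates 2, 3, 4 and 5), called Ogt knockdown below after the study's own word. Mice of both genotypes received the same pair of viruses in the ventral tegmental area, AAV-TH-Cre, which makes Cre recombinase under the tyrosine hydroxylase promoter, and AAV-Flex-NBL10, which makes an HA-tagged NBL10 protein only where Cre is present and marks the ribosomes that are then enriched. The series' design describes this enrichment, whereas the sample labels give the molecule as total RNA. All mice were male, as their single floxed or unfloxed Ogt copy beside a Y chromosome shows. Which exons of Ogt are floxed, the age of the mice and whether each library came from a different mouse are not given in the sources used here. The p-values therefore describe only the spread among these libraries, which may be technical.

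As background, a synaptic vesicle fuses with the plasma membrane when the vesicle SNARE synaptobrevin (VAMP) zips together with the membrane SNAREs syntaxin and SNAP-25. Complexins clamp and then assist this step. RIM, Munc13, ELKS, bassoon, piccolo, liprin and CAPS proteins build the active zone, where vesicles dock and are primed. After fusion NSF and its SNAP adaptors pull the SNAREs apart, and dynamin, amphiphysin, endophilin and synaptojanin retrieve and uncoat the membrane. Dopamine neurons use this machinery at their axonal release sites and for release from their cell bodies and dendrites, and every other neuron uses it too.

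Libraries held 49802305 to 147747191 counted reads, and the lowest count of any of the 39 genes in any library was 88 reads (Syn3). Levels are given in CPM, which are reads relative to the size of the library after TMM scaling, and genes were tested with edgeR's quasi-likelihood test at an adjusted p of 0.05 over 19912 genes. The Ogt message was lower in all knockdown libraries, at 36.0 to 74.4 CPM against 108 to 159 CPM in controls. Th, which encodes tyrosine hydroxylase and is used here as a marker of dopamine neurons, stood at 435 to 1241 CPM in controls and at 180 to 282 CPM in knockdown. Control replicate 3 and knockdown replicate 3 stood apart from the rest of their groups for several of the genes below, and values without them are given where they change a call or the size of a change by much.

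The libraries were mixtures of messages, and marker lists of several cell types differed between the groups. Of 25 pan-neuronal genes outside the release machinery, 20 fell, such as Tubb3, and 5 did not pass, such as Map2. The summed level of the 25 was 17287 to 21406 CPM in controls and 7706 to 8800.4 CPM in knockdown. Of 15 dopamine neuron markers 11 fell and 1 rose (sums of 2231 to 3977 and 1844 to 2483 CPM, median fall 3.08-fold), of 7 GABA neuron markers 5 fell (934 to 1625 and 678 to 999 CPM), of 5 glutamate neuron markers 2 fell (365 to 411 and 158 to 214 CPM), and of 4 serotonin neuron markers 3 fell (65.7 to 266 and 36.7 to 69.7 CPM). The dopamine marker that rose was Aldh1a1, an aldehyde dehydrogenase that other cell types express too; it made up most of that list's knockdown sum, at 723 ± 201 CPM in controls and 1664 ± 259 CPM in knockdown (SD, n = 4 each). Markers of glia moved the other way. Of 12 astrocyte markers 4 rose (2105 to 7229 and 14100 to 18519 CPM), of 12 oligodendrocyte markers 6 rose (1280 to 1896 and 1973 to 4489.7 CPM), and of 12 markers of microglia and macrophages 11 rose (18.2 to 36.4 and 59.5 to 198 CPM). Most of the astrocyte sum in knockdown came from Gfap (1162 ± 796 to 7270 ± 1339.5 CPM) and Clu (1056 ± 381 to 3764.5 ± 552 CPM). All 12 astrocyte markers had positive log2 fold changes, and 8 did not pass. The summed level of 10 endothelial and mural markers was 1016 CPM in control replicate 3, 15.0 to 23.7 CPM in the other controls and 38.9 to 63.7 CPM in knockdown. Tbr1 was the marker with 0 reads in at least 1 library, and every other marker was detected in all 8. In such mixed libraries fewer cells of a type and less RNA per cell cannot be told apart. No library is labelled as unenriched tissue, so a change in the tissue and one in the enrichment of tagged ribosomes cannot be told apart. The part of these markers in the results below was not tested.

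**Figure D1:**
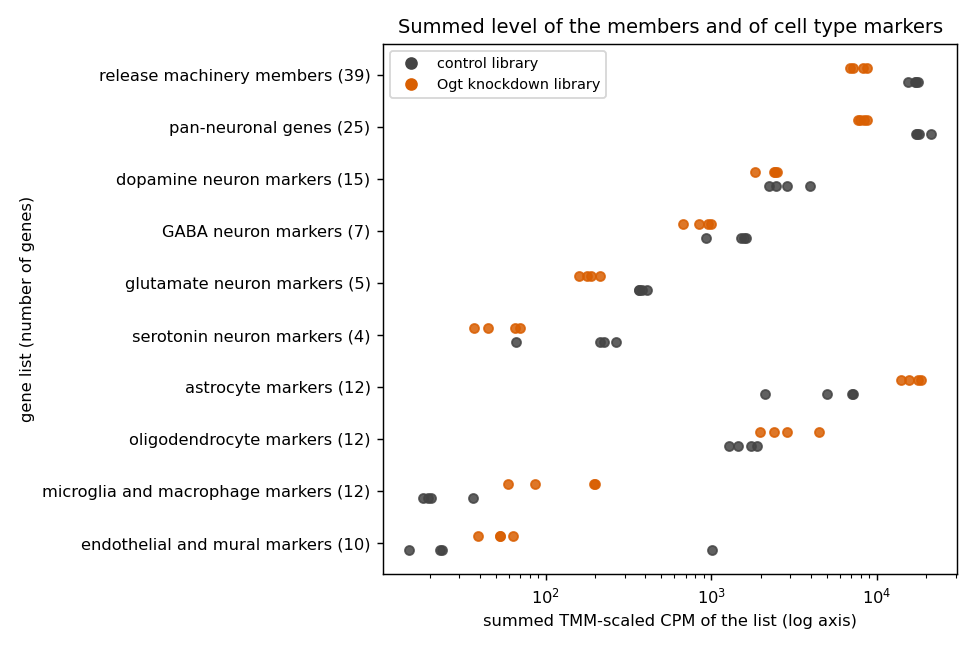
Summed TMM-scaled CPM (log axis) of the 39 release machinery genes and of 9 marker lists; each point is 1 library, dark for control and orange for Ogt knockdown. The knockdown libraries lie below all controls for the release machinery and the pan-neuronal genes, and above all controls for astrocyte, oligodendrocyte and microglia markers.

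Messages for these 39 genes of the vesicle release machinery were mostly lower in the knockdown libraries. Within the 39, the median falls were largest for vesicle membrane proteins and SNAREs, and most active zone genes did not pass the test. Other SNARE and active zone genes, outside the 39, had similar medians (log2 fold change -0.36 each). Of the 39 genes 27 fell, 1 rose and 11 did not pass. Over all genes tested, 15.1% were lower and 13.4% higher. The fall was at least 2-fold for 16 of the 39, against 5.26% of all genes. In 26 of the 39 every knockdown library lay below every control library, as in 18.0% of all genes, and in 1 every knockdown library lay above, as in 17.1%. The median log2 fold change was -0.82, against 0.00 over all genes, and the range ran from -2.24 (Vamp1) to 0.61 (Bin1). Summed over the 39 genes, the level was 15378, 17733, 17244 and 17097 CPM in control replicates 3, 4, 5 and 6 and 7243, 6921, 8277 and 8791 CPM in knockdown replicates 2, 3, 4 and 5, which is 2.16-fold lower in the means (16863 ± 1026.5 and 7808 ± 874 CPM, SD, n = 4 each). The genes took 1.49% to 1.71% of all counted reads in controls and 0.690% to 0.916% in knockdown.

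The same 39 genes gave another picture when set against other neuronal messages. Scaled so that the 25 pan-neuronal genes kept their mean level, a setting that moved the median of all genes to 1.02, 7 of the 39 were lower (1.30% of all genes), 12 were higher (64.8% of all genes) and 20 did not pass the edgeR test, and their median log2 fold change turned from -0.82 to 0.19. The 7 that were lower also on this scale were Vamp1, Cplx1, Napb, Sv2a, Sv2b, Syp and Syngr3. Each direction given below is therefore relative to all genes by TMM scaling, and the direction under pan-neuronal scaling is given with each group. Without both libraries numbered 3, the TMM-scaled counts were 29 lower (23.3% of all genes) and 2 higher (23.5%).

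**Figure D2:**
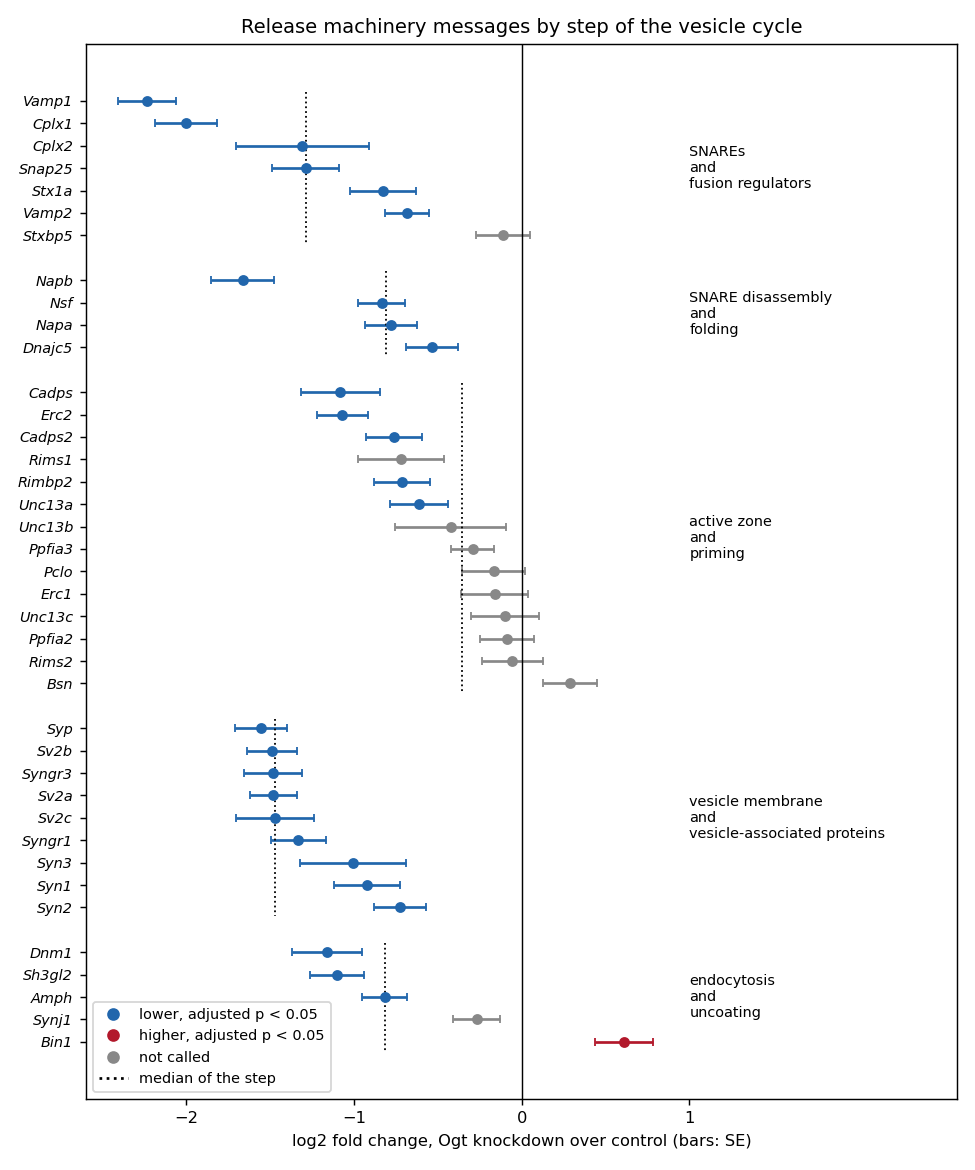
Log2 fold change (x axis, Ogt knockdown over control, bars SE) of each of the 39 genes (y axis), grouped by step; blue genes passed as lower, red as higher, grey did not pass, and dotted lines mark the median of each step. Vesicle proteins lie furthest left as a group (median -1.47), active zone genes nearest to 0 (median -0.36), and Bin1 lies to the right at 0.61.

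Among SNAREs and fusion regulators 6 of 7 fell, with a median log2 fold change of -1.29. Under pan-neuronal scaling 2 were lower (1.30% of all genes) and 1 was higher (64.8%). The median there was -0.25, against 1.02 over all genes. Vamp1 (ENSMUSG00000030337.17, chromosome 6, 125192514 to 125222927, GRCm39) encodes synaptobrevin 1, the vesicle SNARE of many fast-firing neurons. Its level was 703, 969.8, 1011 and 911 CPM in control replicates 3, 4, 5 and 6 and 216, 148, 189.6 and 209.8 CPM in knockdown replicates 2, 3, 4 and 5. Every knockdown library lay far below the lowest control, and the fall was 4.71-fold (log2 fold change -2.24, SE 0.17, edgeR adjusted p = 0.000118). Cplx1 (chromosome 5, 108666420 to 108697890) encodes complexin 1, a small protein that binds the assembled SNARE complex. It stood at 1449.9, 1831, 1934 and 1625 CPM in controls and at 423, 305, 468 and 509.7 CPM in knockdown, in the same order of replicates. The groups were again far apart, with a 4.01-fold fall (log2 fold change -2.00, SE 0.19, adjusted p = 0.000184). Snap25 (chromosome 2, 136555373 to 136624348), the membrane SNARE that contributes a pair of helices to the complex, stood at 1742, 3158, 3048 and 2898 CPM in controls and at 1007, 1063, 1102 and 1265 CPM in knockdown. Control replicate 3 was nearest to the knockdown libraries, the groups did not overlap, and the fall was 2.44-fold (log2 fold change -1.29, SE 0.20, adjusted p = 0.0015).

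Vamp2, synaptobrevin 2, the more widespread vesicle SNARE, and Stx1a, syntaxin 1A, fell less. Vamp2 stood at 1448, 1459.6, 1395 and 1510.5 CPM in controls and at 744, 953, 917 and 1004 CPM in knockdown (1.61-fold lower, adjusted p = 0.00488), with no overlap. Stx1a stood at 38.1 to 61.3 CPM in controls and 21.6 to 34.9 CPM in knockdown (1.77-fold lower, adjusted p = 0.0119), again with no overlap. Both were turned upward but not called under pan-neuronal scaling (log2 fold changes 0.33 and 0.18). Cplx2, complexin 2, had 658 CPM in control replicate 3 against 231, 203 and 183 CPM in the other controls, and 153, 136, 98.9 and 127 CPM in knockdown. That single library set the size of its fall, which was 2.48-fold with it (adjusted p = 0.0348) and 1.60-fold without it (adjusted p = 0.00775); the call was lost when any 1 knockdown library was left out (adjusted p = 0.0589 to 0.0868). Stxbp5, tomosyn, an inhibitor that takes up free syntaxin and SNAP-25, did not pass, with 57.0, 91.5, 74.9 and 82.5 CPM in controls and 75.9, 58.2, 77.3 and 71.6 CPM in knockdown (log2 fold change -0.11, SE 0.16, adjusted p = 0.641; 0.89 and called higher under pan-neuronal scaling). Its groups overlapped throughout.

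Because Vamp1 and Cplx1 had the largest falls, Syn1 and Syn2 hold a searched motif and Bsn did not fall, the 250 bases before a listed start of each are shown. Sequences are from RefSeq (GRCm38.p6, a different build from that of the counts), which matched 32 of the 39 genes; Bin1, Dnajc5, Rims2, Snap25, Syn3, Syngr3 and Vamp2 had no entry. They are written 5′ to 3′ on the strand of the gene, and capitals mark matches, on either strand, to 3 motifs: STAT (TTCNNNGAA), CRE (TGACGTCA) and GC box (GGGCGG). The windows are chr6:125215331-125215580 (plus strand) for Vamp1, chr5:108550028-108550277 (minus) for Cplx1, chrX:20920919-20921168 (minus) for Syn1, chr6:115238744-115238993 (plus, 1 of 2 listed starts) for Syn2 and chr9:108190384-108190633 (minus) for Bsn. The Syn2 start was picked because it has a STAT match, which its other listed start lacks. Syn2 runs from 115111863 to 115258967 in GRCm39. On the same chromosome, Vamp1 starts at 125192514 in GRCm39, and its window here ends at 125215580. By these positions the picked Syn2 start lies inside the gene, far from the first exon. The shift between builds was taken from Vamp1 alone. Syn2 is also counted below among the genes with a GC box, which the printed window does not hold.
Vamp1: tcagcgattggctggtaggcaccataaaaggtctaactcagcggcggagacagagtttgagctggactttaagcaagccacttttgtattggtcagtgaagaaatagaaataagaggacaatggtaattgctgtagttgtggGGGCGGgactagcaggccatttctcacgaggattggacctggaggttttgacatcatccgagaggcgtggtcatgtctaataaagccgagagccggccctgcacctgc
Cplx1: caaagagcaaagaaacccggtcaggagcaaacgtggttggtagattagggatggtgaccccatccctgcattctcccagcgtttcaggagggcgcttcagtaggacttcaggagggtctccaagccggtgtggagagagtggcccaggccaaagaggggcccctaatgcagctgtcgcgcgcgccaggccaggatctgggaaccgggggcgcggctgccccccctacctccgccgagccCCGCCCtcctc
Syn1: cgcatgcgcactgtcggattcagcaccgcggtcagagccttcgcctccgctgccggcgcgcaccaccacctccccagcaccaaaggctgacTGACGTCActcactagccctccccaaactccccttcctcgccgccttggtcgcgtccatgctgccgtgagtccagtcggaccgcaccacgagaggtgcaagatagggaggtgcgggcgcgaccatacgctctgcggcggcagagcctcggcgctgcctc
Syn2: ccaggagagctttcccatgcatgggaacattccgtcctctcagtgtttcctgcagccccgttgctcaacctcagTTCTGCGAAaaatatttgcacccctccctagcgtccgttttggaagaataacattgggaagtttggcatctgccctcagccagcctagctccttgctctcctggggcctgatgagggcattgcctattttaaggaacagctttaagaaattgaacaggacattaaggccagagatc
Bsn: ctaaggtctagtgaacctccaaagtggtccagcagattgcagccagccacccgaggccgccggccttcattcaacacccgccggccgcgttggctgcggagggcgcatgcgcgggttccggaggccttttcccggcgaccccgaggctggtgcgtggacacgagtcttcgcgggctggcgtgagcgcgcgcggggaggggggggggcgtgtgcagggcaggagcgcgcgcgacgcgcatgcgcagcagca
The GC box starts 108 bases before the start of Vamp1 and 11 bases before that of Cplx1, and the CRE 159 bases before that of Syn1. The STAT match starts 176 bases before the picked internal start of Syn2. In windows from 250 bases before to 50 after each start, a STAT match was in 2 of 37 promoters of the 39 genes (Sv2b and Syn2, 5.41%) and in 8.3% of all 32851 promoters. A CRE was in 3 of 37 (Napa, Sh3gl2 and Syn1, 8.11%) against 1.79% of all, and a GC box in 24 of 37 (64.9%) against 35.7% of all. These letters are descriptions of the windows, and no binding was measured.

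In SNARE disassembly and folding 4 of 4 fell, with a median log2 fold change of -0.81. Under pan-neuronal scaling 1 was lower (1.30% of all genes) and 1 was higher (64.8%). The median there was 0.20, against 1.02 over all genes. Napb, beta-SNAP, the brain form of the adaptor that brings NSF to used SNARE complexes, stood at 395, 584, 553 and 540.4 CPM in control replicates 3, 4, 5 and 6 and at 169, 116, 187 and 182 CPM in knockdown replicates 2, 3, 4 and 5. No libraries overlapped, and the fall was 3.17-fold (log2 fold change -1.67, SE 0.19, edgeR adjusted p = 0.000432). Nsf, the ATPase that unwinds the complexes, stood at 970.4, 1099.7, 1055 and 1106 CPM in controls and at 526, 510.2, 627 and 706 CPM in knockdown. It fell 1.79-fold with no overlap (log2 fold change -0.84, SE 0.14, adjusted p = 0.00248). Napa, alpha-SNAP, the more widely expressed adaptor, stood at 356, 267, 275 and 281 CPM in controls and at 152, 149, 176 and 211 CPM in knockdown. Its fall was 1.72-fold with no overlap (log2 fold change -0.78, SE 0.16, adjusted p = 0.00524). Dnajc5, cysteine string protein alpha, a chaperone that keeps SNAP-25 folded, had 411 to 549 CPM in controls and 298 to 412 CPM in knockdown. The highest knockdown library overlapped the lowest control, and the 1.45-fold fall (adjusted p = 0.0279) was lost when control replicate 4, 5 or 6, or else knockdown replicate 2, was left out (adjusted p = 0.0705 to 0.0839); under pan-neuronal scaling it was higher (log2 fold change 0.46).

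Among active zone and priming genes 5 of 14 fell and 9 did not pass, with a median log2 fold change of -0.36. Under pan-neuronal scaling 8 were higher (64.8% of all genes) and 6 did not pass. The median there was 0.66, against 1.02 over all genes. Erc2, the brain form of the ELKS scaffold, stood at 56.0, 73.0, 68.1 and 67.0 CPM in control replicates 3, 4, 5 and 6 and at 29.9, 26.0, 39.1 and 30.6 CPM in knockdown replicates 2, 3, 4 and 5. The groups did not overlap, and it fell 2.10-fold (log2 fold change -1.07, SE 0.15, edgeR adjusted p = 0.00106). Cadps, which encodes CAPS1, a priming factor for dense-core vesicles and monoamine loading, stood at 218, 397, 374 and 347 CPM in controls and at 161, 103, 200.0 and 168 CPM in knockdown. Control replicate 3 was close to knockdown replicate 4, but the groups did not overlap, and the fall was 2.12-fold (log2 fold change -1.08, SE 0.23, adjusted p = 0.0077). Cadps2, its relative CAPS2, stood at 49.6, 72.9, 68.4 and 65.2 CPM in controls and at 34.1, 30.7, 46.0 and 40.3 CPM in knockdown. It fell 1.69-fold with no overlap (log2 fold change -0.76, SE 0.17, adjusted p = 0.00831). Rimbp2, which links RIM to calcium channels, fell 1.64-fold (52.1 to 63.9 CPM in controls, 24.9 to 42.6 CPM in knockdown, adjusted p = 0.0114). Unc13a, Munc13-1, the main priming factor of most forebrain synapses, fell 1.53-fold (92.7 to 116 and 45.1 to 79.0 CPM, adjusted p = 0.0247), and its call was lost without knockdown replicate 5 (adjusted p = 0.0504). Neither gene overlapped between the groups. Of these 5, Erc2 and Cadps kept a negative log2 fold change under pan-neuronal scaling (-0.07 and -0.09, not called), and Rimbp2, Cadps2 and Unc13a turned positive (0.28, 0.24 and 0.39, the last called).

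The 9 active zone genes that did not pass had log2 fold changes from -0.72 to 0.29 and adjusted p from 0.0602 to 0.849, and their groups overlapped. Rims1, which encodes RIM1, the organiser of vesicle docking and calcium channel tethering, stood at 44.4, 88.4, 86.6 and 81.0 CPM in controls and at 50.0, 27.7, 52.0 and 52.7 CPM in knockdown. Both libraries numbered 3 were the lowest of their group. Rims1 missed the threshold with all libraries (log2 fold change -0.72, SE 0.26, adjusted p = 0.0602) and passed it without control replicate 3 (-0.91, adjusted p = 0.00662) and without both libraries numbered 3 (-0.73, adjusted p = 1.44e-05), as well as with DESeq2 (-0.71, adjusted p = 0.0323) and limma-voom (-0.73, adjusted p = 0.000178). Rims2, encoding RIM2, stood at 37.0, 57.0, 52.8 and 52.6 CPM in controls and 49.8, 34.9, 54.2 and 52.9 CPM in knockdown (log2 fold change -0.06, SE 0.18, adjusted p = 0.849). The groups overlapped, with knockdown replicate 3 below every control. Unc13b, Munc13-2, had 21.5 CPM in control replicate 3, 8.28 to 10.2 CPM in the other controls and 6.88 to 12.8 CPM in knockdown (log2 fold change -0.42, SE 0.33, adjusted p = 0.373). Its log2 fold change was -0.0029 without control replicate 3 (adjusted p = 0.994) and 0.12 without both libraries numbered 3 (adjusted p = 0.656), so the lower mean rested on that control library. Unc13c, Munc13-3, the member best known from the cerebellum, had 40.0, 48.6, 44.1 and 48.4 CPM in controls and 53.3, 26.9, 50.8 and 37.7 CPM in knockdown (log2 fold change -0.10, SE 0.20, adjusted p = 0.746). Its knockdown libraries lay on both sides of the controls.

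The giant scaffolds bassoon and piccolo tether vesicles to the active zone. Bsn stood at 51.4, 48.4, 39.3 and 37.4 CPM in controls and at 67.5, 45.4, 53.7 and 48.7 CPM in knockdown (log2 fold change 0.29, SE 0.16, adjusted p = 0.215), and Pclo at 32.5, 59.2, 45.1 and 51.9 CPM in controls and 49.5, 38.3, 43.1 and 37.1 CPM in knockdown (log2 fold change -0.17, SE 0.19, adjusted p = 0.539). Bsn was the highest in knockdown replicate 2, and without both libraries numbered 3 it was called higher (log2 fold change 0.45, adjusted p = 0.0188); under pan-neuronal scaling it had the largest positive value of the active zone genes (1.31). Erc1, the broadly expressed ELKS scaffold, stood at 25.7, 20.8, 20.1 and 19.3 CPM in controls and at 18.9, 12.5, 24.1 and 21.3 CPM in knockdown (log2 fold change -0.16, SE 0.20, adjusted p = 0.589). Ppfia2 and Ppfia3 encode liprin-alpha proteins, which recruit active zone material. Ppfia2 had 39.1, 56.8, 50.7 and 54.8 CPM in controls and 48.4, 37.1, 54.5 and 49.3 CPM in knockdown (log2 fold change -0.09, SE 0.16, adjusted p = 0.718). Ppfia3 had 136, 120.5, 101 and 113 CPM in controls and 94.3, 85.9, 99.8 and 104 CPM in knockdown (log2 fold change -0.29, SE 0.13, adjusted p = 0.112), with knockdown replicate 5 above the lowest control. Another gene's exons cover 22.3% of the exonic bases of Ppfia2 and 11.8% of those of Erc1, and a read that touches exons of both genes was not counted.

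All 9 genes for vesicle membrane and vesicle-associated proteins fell, each with no overlap between the groups, with a median log2 fold change of -1.47. Under pan-neuronal scaling 4 were lower (1.30% of all genes) and 5 did not pass. The median there was -0.47, against 1.02 over all genes. Sv2a, the most abundant of the SV2 transporter-like proteins here and the binding site of levetiracetam, stood at 849, 699.8, 709.9 and 749.6 CPM in control replicates 3, 4, 5 and 6 and at 257, 229, 295 and 297 CPM in knockdown replicates 2, 3, 4 and 5. It fell 2.79-fold (log2 fold change -1.48, SE 0.14, edgeR adjusted p = 0.000184). Syp, synaptophysin, the classic marker of synaptic vesicles, stood at 1231, 980.5, 1009.7 and 1013 CPM in controls and at 282, 385, 394 and 381 CPM in knockdown. Control replicate 3 was the highest and knockdown replicate 2 the lowest, and the fall was 2.94-fold (log2 fold change -1.55, SE 0.15, adjusted p = 0.000237). Sv2b stood at 82.8, 103, 103 and 93.1 CPM in controls and at 30.9, 27.7, 41.5 and 35.5 CPM in knockdown. It fell 2.81-fold (log2 fold change -1.49, SE 0.15, adjusted p = 0.000255), and Sv2c, the SV2 form known from basal ganglia and midbrain, fell 2.77-fold (92.3 to 130.2 and 22.7 to 52.0 CPM, adjusted p = 0.00177). Another gene's exons cover 16.8% of the exonic bases of Syp.

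The synaptogyrins, relatives of synaptophysin, fell by similar amounts. Syngr1 fell 2.52-fold (910.4 to 986 CPM in controls, 281 to 454 CPM in knockdown, adjusted p = 0.000573) and Syngr3, which binds the dopamine transporter, fell 2.80-fold (313 to 391 and 99.0 to 160.3 CPM, adjusted p = 0.00047). The synapsins, which tether vesicles in the reserve pool, fell less in value. Syn1 fell 1.90-fold (240.4 to 417 and 168 to 236 CPM, adjusted p = 0.00695) and Syn2 1.65-fold (271 to 399 and 172 to 223 CPM, adjusted p = 0.00697); their log2 fold changes were 0.072 and 0.29, not called, under pan-neuronal scaling. Syn3 was rare, with 5.31, 7.85, 7.13 and 7.99 CPM in controls and 3.82, 1.59, 4.77 and 3.87 CPM in knockdown. It fell 2.01-fold (adjusted p = 0.0384), and the call was lost when any of control replicates 4, 5 and 6 or of knockdown replicates 2 and 5 was left out (adjusted p = 0.0686 to 0.0963). Exons of another gene cover 14.1% of its exonic bases.

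Of the 5 genes of endocytosis and uncoating 3 fell, 1 rose and 1 did not pass, with a median log2 fold change of -0.82. Under pan-neuronal scaling 2 were higher (64.8% of all genes) and 3 did not pass. The median there was 0.19, against 1.02 over all genes. Sh3gl2, endophilin A1, which bends the membrane of the vesicle neck, stood at 201, 305, 279 and 291 CPM in control replicates 3, 4, 5 and 6 and at 114, 111, 137 and 138 CPM in knockdown replicates 2, 3, 4 and 5. The groups did not overlap, and it fell 2.15-fold (log2 fold change -1.10, SE 0.16, edgeR adjusted p = 0.00115). Dnm1, dynamin 1, the GTPase that cuts the neck, stood at 1169.7, 1229, 1154 and 1159.9 CPM in controls and at 503, 323, 617 and 663 CPM in knockdown. Knockdown replicate 3 was the lowest, and the fall was 2.24-fold (log2 fold change -1.16, SE 0.21, adjusted p = 0.00306). Amph, amphiphysin, which recruits dynamin, stood at 162, 187, 173 and 191 CPM in controls and at 86.4, 90.6, 113 and 115 CPM in knockdown. Its fall was 1.76-fold with no overlap (log2 fold change -0.82, SE 0.13, adjusted p = 0.0021), and its log2 fold change turned to 0.19, not called, under pan-neuronal scaling. Synj1, synaptojanin 1, the lipid phosphatase that sheds the clathrin coat, stood at 251, 344, 307 and 314 CPM in controls and at 255, 212, 284 and 258 CPM in knockdown. The groups overlapped through control replicate 3, and it did not pass (log2 fold change -0.27, SE 0.14, adjusted p = 0.185); without both libraries numbered 3 it was called lower (-0.28, adjusted p = 0.0182), and under pan-neuronal scaling it was higher (0.74).

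Bin1 (chromosome 18, 32510283 to 32568790, GRCm39), amphiphysin 2, was the 1 gene of the 39 that rose. It encodes a membrane-bending protein that neurons share with oligodendrocytes and muscle. Its level was 247, 199, 213 and 190.3 CPM in controls and 287, 437, 276 and 297 CPM in knockdown. Every knockdown library lay above every control, with knockdown replicate 3 the highest, and the rise was 0.61 on the log2 scale (SE 0.17, edgeR adjusted p = 0.0241) and 1.65 under pan-neuronal scaling. The call was lost without control replicate 4, 5 or 6 (adjusted p = 0.0584 to 0.0783). Summed oligodendrocyte markers were higher in every knockdown library too, at 4489.7, 2387, 2853 and 1973 CPM in replicates 2, 3, 4 and 5. Their highest sum was in replicate 2, not replicate 3. So were summed markers of microglia and macrophages higher (198, 197, 59.5 and 86.6 CPM) and those of astrocytes (18519, 14100, 17737 and 15725 CPM). The part of these markers in the rise was not tested.

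**Figure D3:**
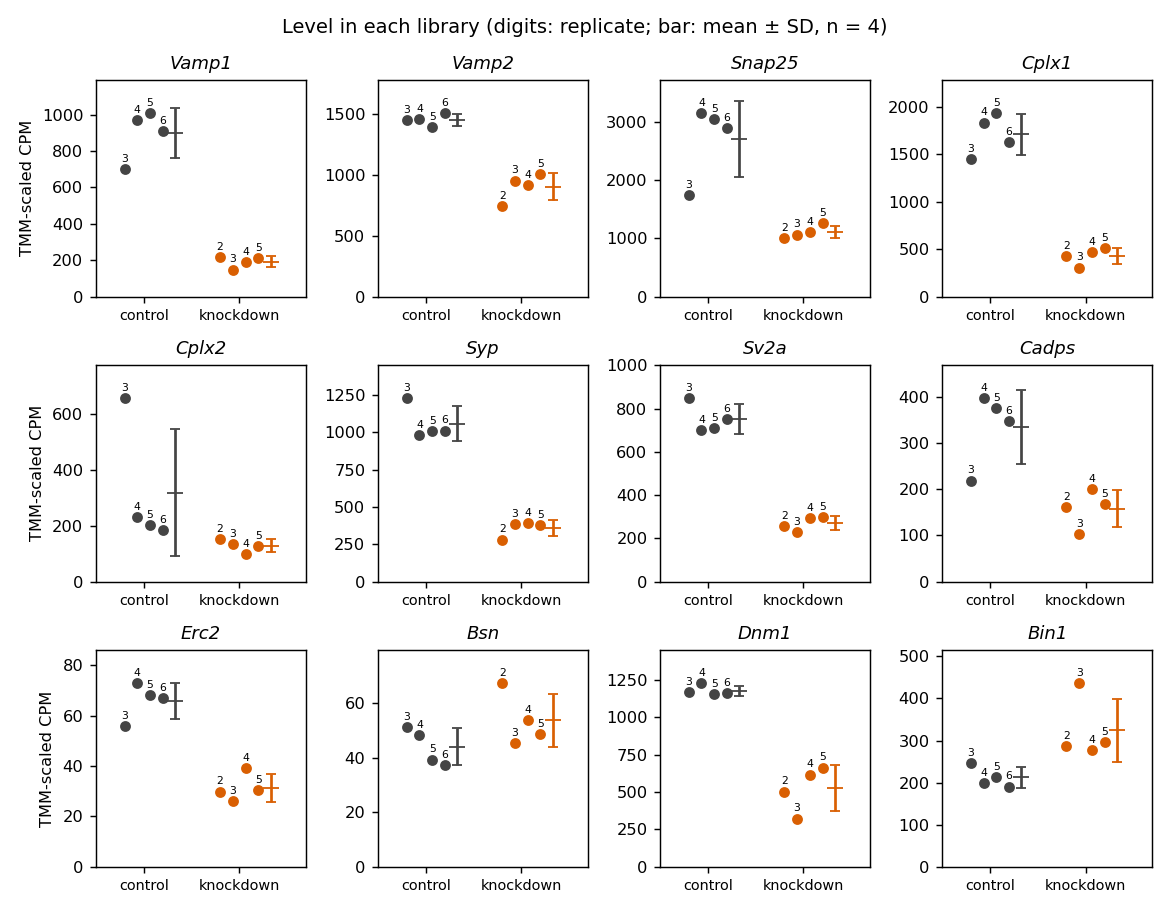
TMM-scaled CPM (y axis from 0, own scale in each panel) of 12 of the 39 genes in each library; digits give the replicate and bars the mean ± SD (n = 4). Vamp1, Cplx1, Syp and Sv2a show the widest gaps between groups, control replicate 3 stands apart for Cplx2 and Snap25, Bsn overlaps and Bin1 is higher in knockdown.

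Whether closely related genes moved by the same amount was compared within libraries, and no pair passed the adjusted test. For 19 pairs of relatives, the log2 ratio of the first to the second gene within each library was compared between groups by an exact two-sided permutation test over the 70 assignments of the 8 libraries, whose smallest possible p is 0.0286. The groups did not overlap for 5 pairs, each at that smallest p, and 0 of 19 passed after adjustment over the pairs (lowest adjusted p = 0.109); at this design at least 11 pairs would have to reach the smallest p for any to pass. The Vamp1/Vamp2 log2 ratio was -1.04, -0.59, -0.47 and -0.73 in control replicates 3, 4, 5 and 6 and -1.78, -2.69, -2.27 and -2.26 in knockdown replicates 2, 3, 4 and 5. Every knockdown library was lower, and the ratio fell by 1.54, or 2.92-fold (-1.51 without both libraries numbered 3). The Amph/Bin1 ratio was -0.61, -0.094, -0.30 and 0.0084 in controls and -1.73, -2.27, -1.29 and -1.37 in knockdown, a change of -1.42. The Rims1/Rims2 ratio was 0.26, 0.63, 0.71 and 0.62 in controls and 0.0062, -0.34, -0.062 and -0.0055 in knockdown, a change of -0.66. For both, and for Unc13a/Unc13c (change -0.49), every knockdown library lay below all controls (exact permutation p = 0.0286 each, adjusted p = 0.109). The Erc1/Erc2 ratio was -1.12, -1.81, -1.76 and -1.80 in controls and -0.67, -1.06, -0.70 and -0.52 in knockdown, a change of 0.89 with every knockdown library higher (exact p = 0.0286, adjusted p = 0.109).

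Control replicate 3 bridged the groups for a further 2 of the 6 pairs with the largest changes. The Cplx1/Cplx2 ratio was 1.14 there, against 2.99, 3.25 and 3.15 in the other controls and 1.46, 1.17, 2.24 and 2.01 in knockdown (change -0.91, exact p = 0.171, adjusted p = 0.362). The Napa/Napb ratio was -0.15 there, against -1.13, -1.01 and -0.95 in the other controls and -0.15, 0.36, -0.085 and 0.21 in knockdown (change 0.89, exact p = 0.0571, adjusted p = 0.155). Without that library the change of Cplx1/Cplx2 was -1.41 and that of Napa/Napb was 1.11, both the furthest from 0 of any left-out library. For the SV2 family the changes lay near 0 with all libraries. Without both libraries numbered 3 they were 0.13 for Sv2a/Sv2b, -0.17 for Sv2a/Sv2c and -0.29 for Sv2b/Sv2c. With all libraries the changes were 0.02 for Sv2a/Sv2b (exact p = 0.857), 0.03 for Sv2a/Sv2c (p = 0.914) and 0.02 for Sv2b/Sv2c (p = 0.971, all permutation tests). The library-to-library SDs were 0.11 to 0.36. The longest run of identical bases between the transcripts of any of the 19 pairs was 32 (Cplx1/Cplx2 and Unc13a/Unc13b), and that of Vamp1/Vamp2 was 18.

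**Figure D4:**
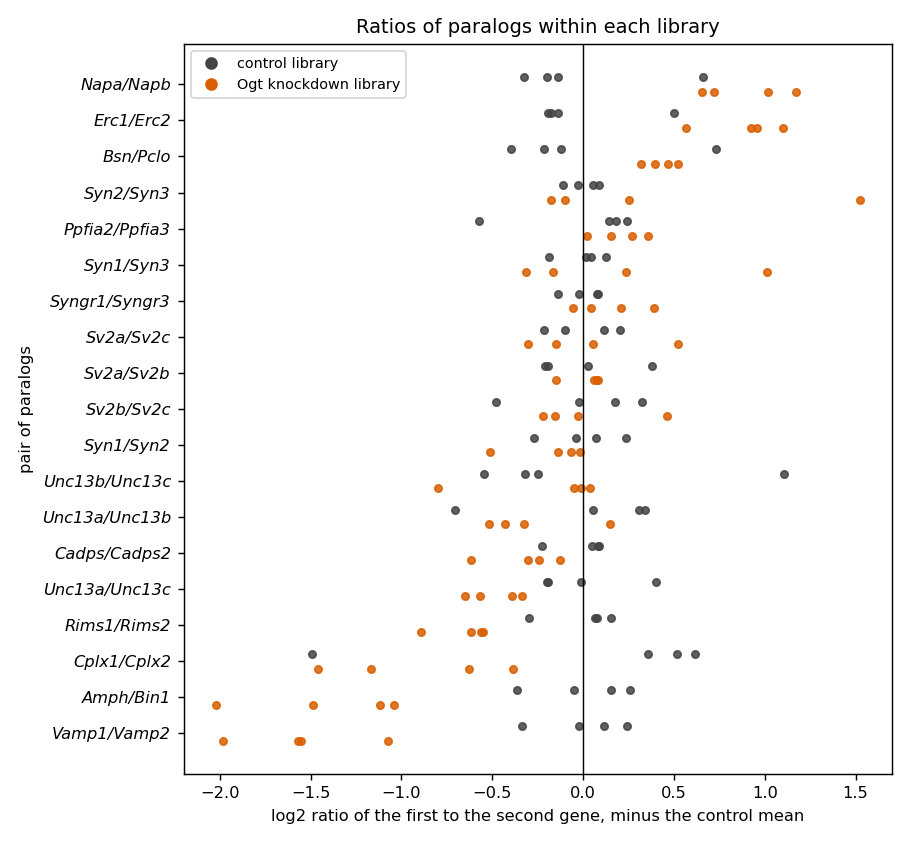
Log2 ratio of the first to the second gene of each pair in each library, minus the mean of the controls (x axis), for 19 pairs of relatives (y axis); dark points are control and orange points Ogt knockdown libraries. Vamp1/Vamp2 and Amph/Bin1 lie furthest left in knockdown, Erc1/Erc2 and Napa/Napb furthest right, and the 3 SV2 pairs scatter around 0.

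Levels per length, in CPM per kilobase of exon averaged over the controls, spanned a wide range. Cplx1 was the highest at 781, followed by Snap25 (399), Vamp2 (382), Dnm1 (224), Syp (203), Syngr1 (199.8), Syngr3 (169) and Sv2a (162). Unc13b (0.536), Syn3 (0.576) and Erc1 (1.32) were the lowest. Neighbours such as Snap25 and Vamp2, or Syp and Syngr1, did not differ beyond their spread over the controls, whose SD is 655 CPM for Snap25. In knockdown, Vamp2 had the highest level per length (237), ahead of Cplx1 (195) and Snap25 (163). The 14 active zone genes ran from 0.536 to 22.2 in controls, with a median of 5.92, and the 9 vesicle protein genes from 0.576 to 203, with a median of 112. Vamp1 stood at 88.4 CPM per kilobase in controls, against 382 for Vamp2, and at 18.8 against 237 in knockdown. The length used is the union of a gene's annotated exons, which can exceed that of the expressed transcript. It was 10.2 kilobases for Vamp1 and 3.81 for Vamp2. Their control means before division by length were nearer, at 899 and 1453 CPM.

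**Figure D5:**
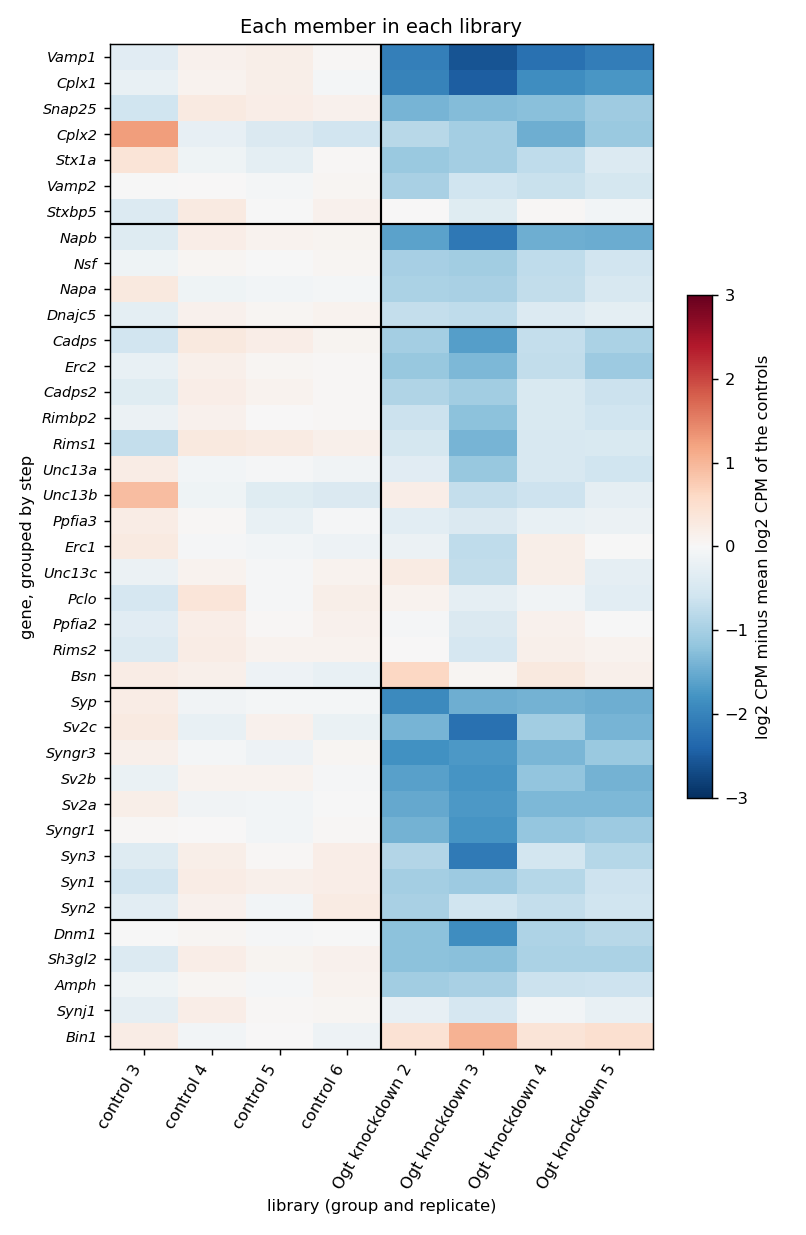
Log2 CPM of each of the 39 genes in each library minus its mean in the controls (blue lower, red higher), with genes in rows grouped by step and libraries in columns. The vesicle proteins and most SNAREs are blue in all 4 knockdown columns, the lower part of the active zone block is near white, and control replicate 3 stands out for Cplx2 and Unc13b.

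Other genes of the vesicle cycle, which are not among the 39, changed in both directions. Of 79 listed, 78 were found by name and 76 were tested; 31 fell (15.1% of all genes), 11 rose (13.4%) and 34 did not pass, with a median log2 fold change of -0.30; under pan-neuronal scaling 5 were lower (1.30% of all genes) and 50 higher (64.8%). Among those that fell with the smallest p were Baiap3, a Munc13 relative in dense-core vesicle release (226 ± 45.9 to 36.1 ± 7.37 CPM, SD, n = 4, 6.26-fold, edgeR adjusted p = 9.99e-05), Sncb, beta-synuclein (3.10-fold), and Lin7b, a scaffold at the presynaptic membrane (3.57-fold). Among those that rose, the 4 with the smallest p were Svop, a vesicle transporter-like protein (285 ± 5.52 to 495 ± 69.5 CPM, SD, n = 4, 1.74-fold, adjusted p = 0.0021), Syngr2, the synaptogyrin of non-neuronal cells (1.93-fold), Ston2, an endocytic adaptor (1.89-fold), and Vamp3, cellubrevin, a broadly expressed vesicle SNARE (1.60-fold). The median log2 fold change was -0.36 for other SNAREs and fusion regulators (21 tested) and -0.36 for other active zone and priming genes (18). It was -0.80 for other vesicle proteins (10) and -0.20 for other endocytosis genes (27). The gap between SNAREs and active zone genes seen within the 39 was thus not seen here. Of the other active zone and priming genes 8 fell and 1 rose. Of the other SNAREs and fusion regulators 8 fell and 5 rose. Those 5, chosen after their values were seen, were Vamp3, Snap23 (1.91-fold), Stx4a (1.73-fold), Snap29 (1.42-fold) and Stxbp3 (2.29-fold), which act in membrane fusion in many cell types. In the same libraries 11 of 12 markers of microglia and macrophages and 4 of 12 of astrocytes rose, and their part in these rises was not tested.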

How the data were processed

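Ribosome-associated RNA of 8 libraries (4 Ogt knockdown, 4 control, grouped by the genotype in the labels) was sequenced. The deposited table holds raw counts of reads for each gene, made with featureCounts 2.0.3 over GENCODE vM30 exons (GRCm39), per the file headers. Its command sets no strandedness, pair counting, multiple alignment or multiple gene option, so mates were counted singly and reads placed on several sites or genes were left out. Per the submitters' processing notes, FastQC, Trimmomatic and STAR were used with mm10, an earlier build than that of vM30; this conflict was not resolved. Symbols came from GENCODE M21 by gene ID; 52073 of 56691 IDs matched, and the others held 0.327% to 1.81% of reads.

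Counts were filtered with filterByExpr (19912 genes), scaled by TMM and tested with edgeR 4.0.16 (quasi-likelihood, robust, two-sided) in R 4.3.3, with Benjamini-Hochberg adjustment over all genes; the test was tried on simulated data. Fold changes are Ogt knockdown over control; CPM are TMM-scaled. A count of 3 reads is 0.0212 to 0.0626 CPM (counting error alone). Same-group libraries differed beyond sampling noise (chi-square per degree of freedom 25.0 to 463), so none was a duplicate. Ratios of relatives used log2 CPM with a prior count of 2.

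The genes, lists and tests were chosen with earlier results of these data known. Library values are given for the 3 genes of each step with the smallest p among those called, for the 6 pairs with the largest change (by ratio), and for each gene that rose or did not pass; of other vesicle cycle genes, the 4 with the smallest p in each direction are named, except 1 that is not reported here. Alternatives were RLE, upper quartile and pan-neuronal scaling, other filters, DESeq2 1.42.0, limma-voom (limma 3.58.1, sample weights), non-robust estimation, a replicate block, a threshold of 0.01, and leaving out each library or both numbered 3.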

Additional observations from a re-analysis of the deposited data

Results flagged for a closer look

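Within each group of 4 libraries, the gap between the most extreme library and its nearest neighbour was set against the range of the group (Dixon's critical value of 0.829). Of 78 groups (39 genes in each genotype) 10 exceeded it, where chance gives about 3.9. All 7 in the controls came from control replicate 3. There Cplx2 stood at 658 CPM (183 to 231 CPM in the other controls), Napa at 356 CPM (267 to 281 CPM), Unc13a at 116 CPM (92.7 to 96.3 CPM), Unc13b at 21.5 CPM (8.28 to 10.2 CPM) and Syp at 1231 CPM (980.5 to 1013 CPM), each the highest of its group. Rims1 at 44.4 CPM (81.0 to 88.4 CPM in the other controls) and Syn1 at 240.4 CPM (401 to 417 CPM) were the lowest of theirs. The same library had 1016 CPM of endothelial and mural markers, and their part in these values was not tested. In knockdown, Rims1 was low in replicate 3 (27.7 CPM, against 50.0 to 52.7 CPM), Syp was low in replicate 2 (282 CPM, against 381 to 394 CPM) and Bin1 was high in replicate 3 (437 CPM, against 276 to 297 CPM).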

How the results depend on the processing

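Scaling to the pan-neuronal genes changed the results most. It gave 7 of the 39 genes lower and 12 higher (a median log2 fold change of 0.19), with 2 SNARE, 1 disassembly, 0 active zone, 4 vesicle protein and 0 endocytosis genes lower, and 5 lower and 50 higher among the other vesicle cycle genes (1.30% and 64.8% of all genes). Both zeros are edgeR counts and were 0 at an unadjusted p under 0.05 too. Log2 fold changes turned positive for 21 genes, namely Vamp2 (0.33), Stx1a (0.18), Stxbp5 (0.89), Nsf (0.17), Napa (0.23), Dnajc5 (0.46), Rims1 (0.26), Rims2 (0.94), Rimbp2 (0.28), Unc13a (0.39), Unc13b (0.61), Unc13c (0.90), Pclo (0.84), Erc1 (0.84), Cadps2 (0.24), Ppfia2 (0.91), Ppfia3 (0.72), Syn1 (0.072), Syn2 (0.29), Synj1 (0.74) and Amph (0.19).

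Under RLE and upper quartile scaling, the stricter filter, DESeq2, limma-voom, and estimation without robustness, all 27 lower calls were kept. In that order, 14.4%, 12.2%, 19.3%, 17.2%, 24.9% and 15.0% of all genes were lower. Without a filter 26 were kept, Cplx2 being lost, where 8.56% of all genes were lower. limma-voom gave 2 of the 39 genes and 19 of the 76 other genes higher, where 26.4% of all genes were higher. A threshold of 0.01 left 21 of the 39 lower (7.85% of all genes) and 0 higher (5.60%; 1 at an unadjusted p under 0.05), with 3 active zone genes and 17 other genes lower.

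Leaving out 1 library at a time gave 24 to 28 of the 39 genes lower (10.4% to 16.8% of all genes) and 0 to 1 higher (8.12% to 18.1%), with 5 to 6 SNARE, 3 to 4 disassembly, 4 to 6 active zone, 8 to 9 vesicle protein and 3 endocytosis genes lower, 22 to 35 other genes lower and 9 to 15 higher, and a median log2 fold change of -0.91 to -0.76. Without both libraries numbered 3, 2 of the 39 genes and 19 other genes were higher (23.5% of all genes), and ratio changes near 0 turned sign for Sv2a/Sv2c (-0.17), Sv2b/Sv2c (-0.29), Syn1/Syn3 (-0.14) and Unc13b/Unc13c (0.083).

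The groups share the replicate numbers 3, 4 and 5, and the deviations of same-numbered libraries correlated by 0.10, 0.10 and 0.04. The values for replicates 3 and 4 were small but the highest between any knockdown and control library. Knockdown replicate 3 correlated negatively with every other control (-0.067 to -0.081), and knockdown replicate 5 correlated best with control replicate 6 (0.08). The main test did not take the numbers as pairs, and these values do not settle whether they are. With the replicate block, 13 of the 39 genes were lower (3.91% of all genes) and 0 higher (2.41%) by edgeR; at an unadjusted p under 0.05, 28 were lower and 1 higher. Of the 27 lower calls 12 were kept, and Rims1 was gained (adjusted p = 0.0481). The 15 lost were Vamp2, Stx1a, Cplx2, Nsf, Napa, Dnajc5, Rimbp2, Unc13a, Cadps2, Sv2c, Syn1, Syn2, Syn3, Dnm1 and Amph (adjusted p = 0.0501 to 0.164), and the rise of Bin1 was lost too (adjusted p = 0.0815). The steps gave 3 SNARE, 1 disassembly, 3 active zone, 5 vesicle protein and 1 endocytosis gene lower, and other vesicle cycle genes gave 8 lower and 1 higher. Knockdown replicate 2 and control replicate 6 have no library of the same number in the other group. The block therefore compared the groups within replicates 3, 4 and 5 only, and it leaves fewer degrees of freedom. The part of each in the differences was not tested.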

Other observations

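Among the 39 genes, those with the higher level per length in controls tended to have the lower log2 fold change. Across these genes Spearman's rho between the log2 fold change and log2 control CPM per kilobase was -0.62 and Pearson's r was -0.55 (n = 39). Genes are not independent replicates, the points share the same 8 libraries, and the control level enters both measures. The 11 genes that did not pass had 0.536 to 37.6 CPM per kilobase in controls (median 4.63), and the 27 that fell had 0.576 to 781 (median 72.9). Exon lengths were 7.90 to 22.7 kilobases in the first set and 2.07 to 15.05 kilobases in the second. Spearman's rho of the log2 fold change with log2 length was 0.43 across the 39 genes and -0.13 across all 19912 genes tested. Vamp1 and Vamp2 ran against this order, since Vamp1 (88.4 CPM per kilobase) had the lower level and the larger fall in value, next to Vamp2 (382).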
